A study of Mus musculus with 8 samples.

Results

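The 10 chemokine genes described here are *Ccl2*, *Ccl5*, *Ccl7*, *Ccl20*, *Ccl25*, *Cx3cl1*, *Cxcl12*, *Cxcl14*, *Cxcl16* and *Cxcl17*, chosen by symbol from the 39089 genes in the deposited tables as chemokines outside the ELR-type CXC cluster. These 10 are not the whole of that class. Further members, such as *Ccl9*, *Ccl28* and *Cxcl9*, are counted below among the other chemokine ligands. All 10 were found, and 5 of them (*Ccl2*, *Ccl5*, *Ccl25*, *Cx3cl1* and *Cxcl17*) had enough reads to be among the 13921 genes tested. Chemokines are small secreted proteins that bind G protein-coupled receptors and steer leukocytes along their gradients. The ELR-type CXC chemokines draw neutrophils through the receptor CXCR2. The genes described here cover other routes: monocytes through CCR2, T cells through CXCR6 and CCR9, and cells carrying CX3CR1 through a chemokine tethered to the cell membrane. Several, *Ccl2*, *Ccl5*, *Ccl20* and *Cx3cl1* among them, are textbook targets of NF-κB in inflamed tissue.

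Myc-CaP cells come from a prostate tumor of *Myc*-transgenic mice. They carried an empty control vector (WT) or the guide sgARID1A against the chromatin remodeling gene *Arid1a* (KO), and grew under the skin of male FVB mice aged 6 weeks at inoculation, which keep an intact immune system. JSH-23, which blocks the entry of p65, an NF-κB subunit, into the nucleus, was given daily by gavage for 2 weeks from day 16, dissolved in DMSO and diluted in corn oil. The labels name corn oil as the control and the study's figure legend names DMSO. Cells positive for EpCAM and negative for CD45 were sorted from the tumors and sequenced in 4 groups of 2 samples each: WT with vehicle, KO with vehicle, WT with JSH-23 and KO with JSH-23. The labels do not say whether the 2 samples of a group came from separate tumors, or whether the KO cells were 1 clone. The p-values below therefore measure only the spread between these samples. That spread was small: the common biological coefficient of variation, the spread beyond counting error, was 1.61%. Very small p-values rest on it. *Arid1a* RNA was present in the KO cells at 104 ± 2.13 CPM (SD, n = 2) with vehicle, against 159 ± 4.04 CPM (SD, n = 2) in WT, where CPM is the count scaled by the effective size of each library. That was a fall of 1.52-fold, and it was 1.58-fold with JSH-23 (adjusted p = 1.39e-23 and 5.12e-25, lower in both KO samples each time). With WT vehicle replicate 2 or KO vehicle replicate 1 left out, with no scaling, with limma on log2(TPM + 1) or with a biological coefficient of variation of 0.2, the first of these calls was lost (log2 fold changes between -0.63 and -0.58 over all alternatives). The coefficient of 0.2 also ended the call with JSH-23.

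Total counts were 16650998 and 16803946 in WT with vehicle, and 17559823 and 20066676 in KO with vehicle. They were 17792910 and 16401581 in WT with JSH-23, and 19353506 and 21972231 in KO with JSH-23. A count of 3, taken as the lowest level told from 0, corresponded to between 0.144 and 0.182 CPM. Such floors, and the intervals of count ratios given below, cover counting error only.

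The sorted cells were compared with marker genes of the labelled population. *Epcam* RNA was at or near the floor, with 0 and 1 counts in WT with vehicle, 0 and 4 in KO with vehicle, 0 and 0 in WT with JSH-23 and 0 and 1 in KO with JSH-23. Of the 6 epithelial markers, *Krt8* was the most abundant, with 540 to 2308 counts, and *Cldn4* had 111 to 225. *Krt18*, *Cdh1* and *Cldn7* stayed at 18, 19 and 5 counts or fewer. *Krt8* was called higher in KO with either treatment. The RNA of the sort's own marker thus gives little support to the EpCAM label, and *Krt8* and *Cldn4* are the epithelial markers that stand well above the floor. Among fibroblast markers, *Pdgfra* had 704 to 1265 counts and took most of the summed level of the 7 genes, which was 61.3 and 66.2 CPM in WT with vehicle, 65.6 and 65.7 in KO with vehicle, 63.5 and 62.1 in WT with JSH-23 and 43.6 and 42.0 in KO with JSH-23. *Lum*, another fibroblast marker, had 2 counts or fewer.

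Markers of other cells were mostly scarce. The 4 leukocyte genes summed to 34 and 33 counts in WT with vehicle, 19 and 23 in KO with vehicle, 32 and 9 in WT with JSH-23, and 21 and 12 in KO with JSH-23. *Coro1a* was the most abundant of them over the 8 samples. *Ptprc*, which encodes the CD45 used in the sort, had 0 to 10 counts. The 5 neutrophil genes summed to between 0 and 9 counts, with *Ly6g* at 0 in every sample and *Csf3r* the most abundant. The 6 T and NK cell genes summed to between 0 and 5 counts, with *Cd3d* and *Cd8a* at 0 in every sample and *Cd4* the most abundant. The 5 endothelial genes summed to between 15 and 29 counts, led by *Pecam1* with 5 to 12.

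Macrophage and monocyte markers separated samples. The 7 genes summed to 29.6 and 31.8 CPM in WT with vehicle, 31.0 and 34.6 in KO with vehicle, 25.7 and 16.8 in WT with JSH-23, and 18.8 and 16.4 in KO with JSH-23. *Cd68*, the most abundant over the 8 samples, had 81 to 378 counts and was called higher in KO with vehicle. The macrophage genes *Adgre1*, *Csf1r* and *Lyz2* were called lower there, *Lyz2* with 164 and 165 counts in WT and 54 and 71 in KO. *Adgre1* had 17 and 19 counts in WT with vehicle and 0 and 0 in KO with vehicle. In WT with JSH-23 it had 17 counts in replicate 1 and 1 in replicate 2. In KO with JSH-23 it had 0 and 2. *C1qa* had 10 counts in WT JSH-23 replicate 1 against 2 in replicate 2, *C1qb* 12 against 1, *Csf1r* 15 against 1 and *Lyz2* 190 against 85. *Cd68*, with 98 against 81, and *Cd14*, with 119 against 105, were close in these samples.

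The samples of WT with JSH-23 therefore stand apart from each other in *Adgre1*, *C1qa*, *C1qb*, *Csf1r* and *Lyz2*, though not in *Cd68* and *Cd14*. They also stand apart in several chemokines. Replicate 1 had 72 counts of *Ccl5*, 11 of *Cxcl16*, 5 of *Ccl7* and 3 of *Ccl2*. Replicate 2 had 7, 1, 0 and 0. Where leaving out either of these samples changed a call of the 10 chemokines, the values without it are given below. The part of macrophage RNA in these differences was not tested. In KO with vehicle, *Adgre1* and *C1qa* were at 0 in both samples, *Lyz2* had 54 and 71 counts, and *Ccl5* had 73 and 81. *Cd68* (301 and 378) and *Cd14* (204 and 259) had their highest counts of the 4 groups there. These counts are not scaled by library size, and *Cd14* was not called against WT with vehicle. In bulk RNA of sorted cells, fewer cells of a type and less RNA per cell cannot be told apart.

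**Figure D1:**
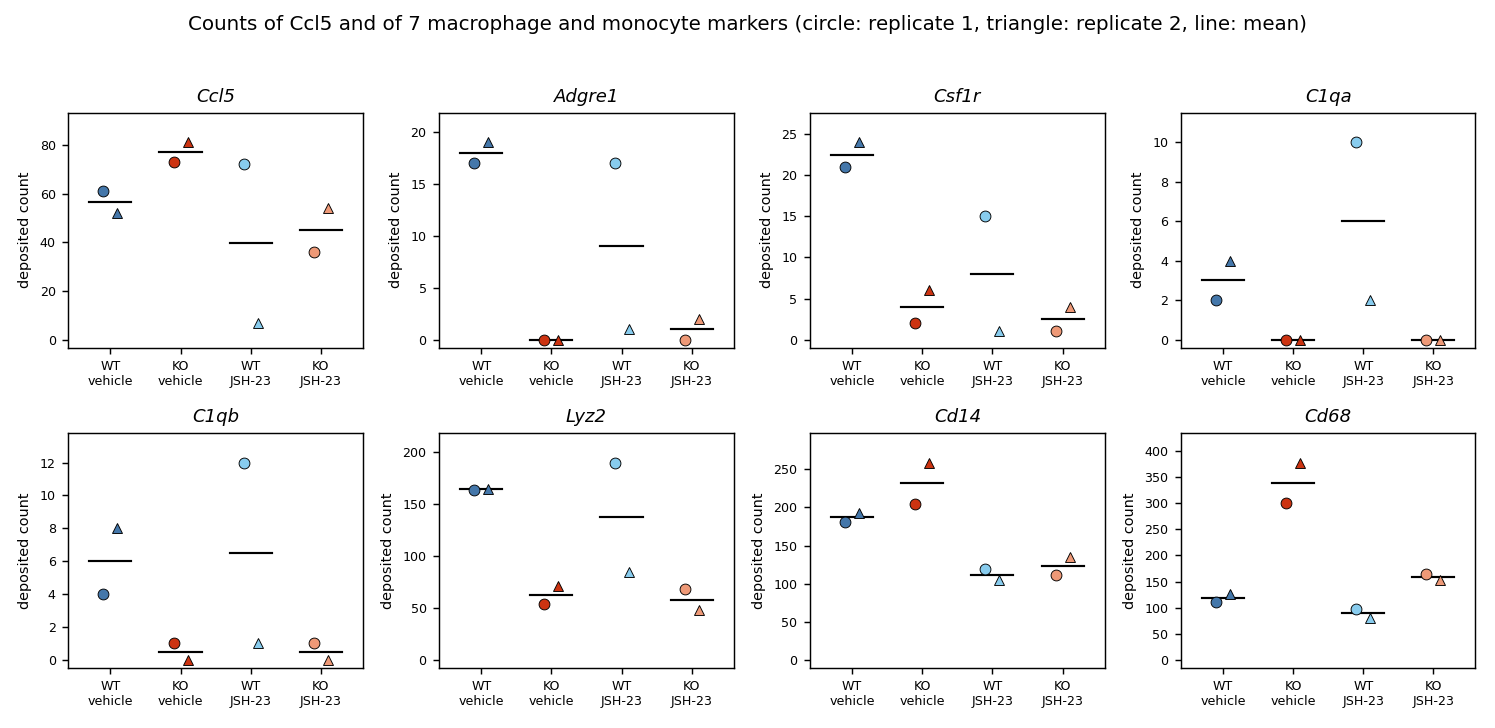
Deposited counts of Ccl5 and of the 7 macrophage and monocyte markers in each of the 8 samples. Points are samples, with circles for replicate 1 and triangles for replicate 2, and lines are means of 2. In WT with JSH-23, replicate 2 is low for Ccl5 (7 counts), Adgre1 (1), Csf1r (1) and C1qb (1), and both KO samples with vehicle, with 73 and 81 counts of Ccl5, have 0 of Adgre1 and the highest counts of Cd68 (301 and 378) and Cd14 (204 and 259).

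The chemokines differed widely in level. Compared per length, as deposited TPM, *Ccl5* was highest with a mean of 13.6 over the 8 samples (range 1.96 to 19.2), followed by *Cx3cl1* at 5.66 (3.41 to 7.79), *Ccl25* at 4.83 (3.81 to 6.63), *Cxcl17* at 2.99 (1.57 to 5.01) and *Ccl2* at 1.31 (0 to 3.35). By mean TPM, *Ccl5* stood at rank 7582 of the 13921 genes tested and *Ccl2* at rank 11817, so each of the 5 was in the lower part of the list. The 5 genes with too few reads lay below, at mean TPM of 0.379 for *Cxcl16*, 0.356 for *Ccl7*, 0.129 for *Cxcl14*, 0.0731 for *Cxcl12* and 0.0601 for *Ccl20*. None of the 10 reached a mean of 10 CPM, the level set for a search for genes of like pattern, so no such genes are named.

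Together the 10 genes summed to 34.8 and 29.6 TPM in WT with vehicle and 39.7 and 42.6 in KO with vehicle. With JSH-23 the sums were 31.7 and 14.1 TPM in WT and 19.3 and 22.9 in KO. The 30 other chemokine ligands in the tables summed to 324 and 320.3 TPM in WT with vehicle, 754 and 757 in KO with vehicle, 97.2 and 92.5 in WT with JSH-23 and 152 and 165 in KO with JSH-23. The 10 genes thus made up 9.72% and 8.46% of chemokine ligand TPM in WT with vehicle, 5.0% and 5.33% in KO with vehicle, 24.6% and 13.2% in WT with JSH-23 and 11.3% and 12.2% in KO with JSH-23. Their share was lowest in KO with vehicle, where their own sum was highest. *Ccl5* was the largest contributor among the 10 in 7 samples, and *Cx3cl1* in WT JSH-23 replicate 2.

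By mean CPM, 8 of the 10 genes were highest in KO with vehicle (9 by TPM), among them the 5 tested. Of all genes tested, 30.5% were highest there by CPM and 37% by TPM. *Ccl20*, *Ccl7* and *Cxcl16*, which are among the 8, had 3, 17 and 40 counts over all samples. In both scales *Cxcl14* was highest in WT with vehicle. *Cxcl12* was highest in WT with JSH-23 by CPM and in KO with vehicle by TPM. These orders are descriptions, and most neighbouring groups overlapped or differed by a few counts.

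**Figure D2:**
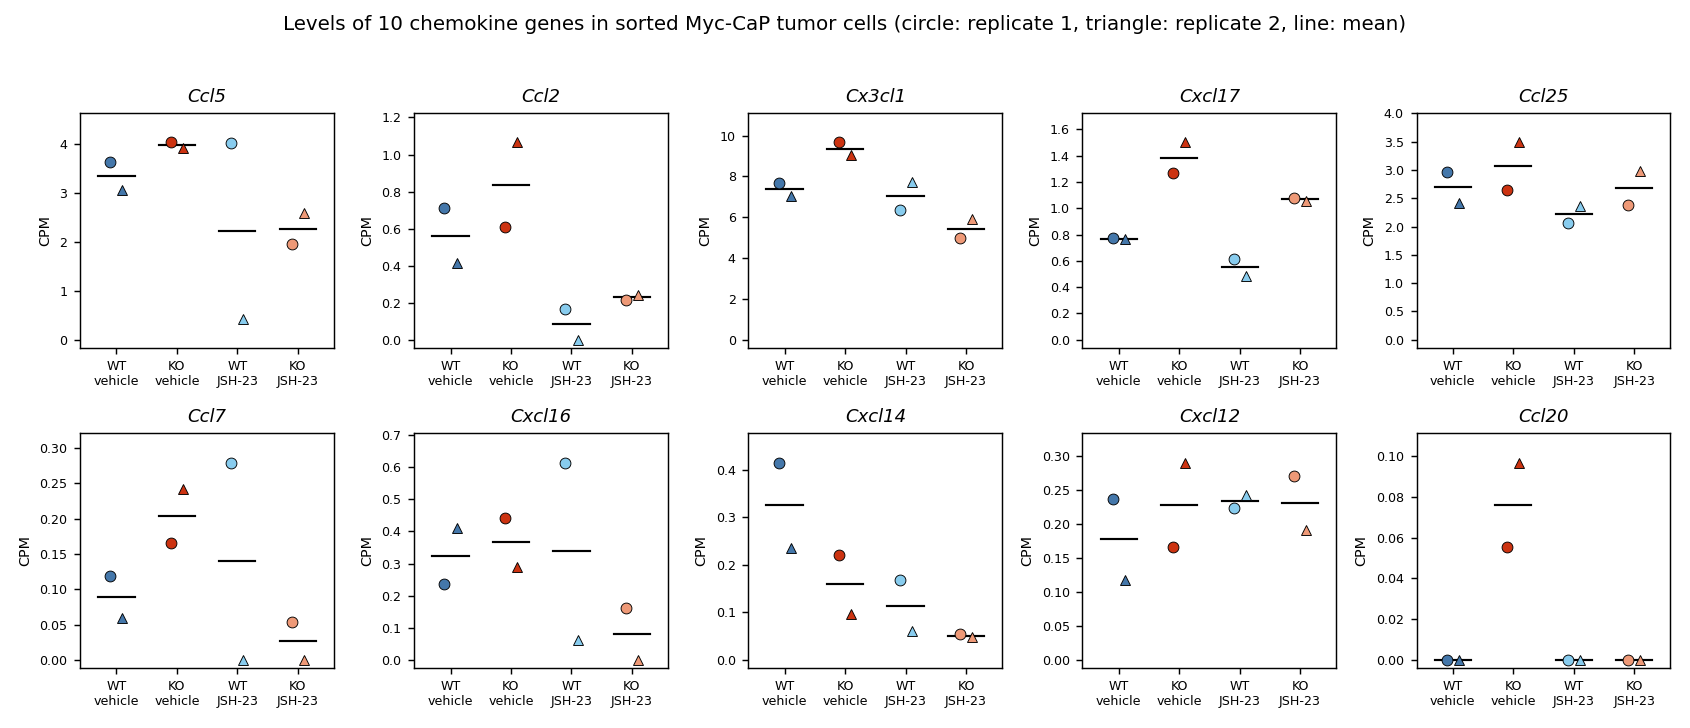
Levels of the 10 chemokine genes in CPM (counts scaled by the effective size of each library) in each sample of the 4 groups, each gene on its own axis from 0. Points are samples, with circles for replicate 1 and triangles for replicate 2, and lines are means of 2. Cx3cl1 lies between 9.06 and 9.67 CPM in KO with vehicle and between 4.97 and 5.90 CPM in KO with JSH-23, and the samples of WT with JSH-23 are far apart for Ccl5 (4.02 and 0.426 CPM).

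JSH-23 against vehicle in KO tumors asks which chemokine RNAs changed with the inhibitor after *Arid1a* loss. The whole mouse was dosed, so dependence of these RNAs on NF-κB within the sorted cells was not tested. *Ccl2*, *Ccl5* and *Cx3cl1* fell, and *Ccl25* and *Cxcl17*, with log2 fold changes of -0.20 and -0.38, did not pass the test. A gene was called when its adjusted p was below 0.05 and its change at least 1.5-fold. Of all genes tested, 16.9% were called lower in this comparison. The median log2 fold change of the 5 chemokines tested was -0.78, against -0.02 for all genes. *Ccl2* passed the filter only through samples with vehicle. These had 7 to 22 counts, against 0 to 5 with JSH-23. Its falls in KO and WT were thus favoured before the test, and the tallies and medians of the 5 are descriptions only. Markers moved in the same comparison: *Cd14* and *Cd68*, of 7 macrophage and monocyte genes, and *Pdgfra*, of 7 fibroblast genes, were called lower, and *Krt18*, of 6 epithelial genes, higher. Their part in the chemokine changes was not tested. In WT tumors, where the same question is asked with *Arid1a* intact, *Ccl2* fell, and edgeR called no other of the 10, beside 10.2% of all genes called lower. There *Csf1r* and *Cd14*, the leukocyte gene *Laptm5* and *Krt8* were called lower and *Col3a1* higher. The median of the 5 was -0.47 (all genes -0.01).

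The interaction tests whether the effect of JSH-23 differed between genotypes. *Cx3cl1* was called, beside 9.07% of all genes called in either direction. Of the markers, *Krt8* was called higher and *Cd68* and *Col3a1* lower in the interaction, and their part in the *Cx3cl1* result was not tested. The median of the 5 was 0.08 (all genes -0.004).

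For *Arid1a* loss itself, edgeR called none of the 10 genes with vehicle, where 12.6% of all genes were called, and none with JSH-23, where 8.71% were. At an unadjusted p under 0.05, 2 of the 5 passed in each (*Cx3cl1* and *Cxcl17*), beside 55.5% of all genes with vehicle and 52.2% with JSH-23. DESeq2 called 0 in both. Limma on TPM called *Cxcl17*, with vehicle at both pseudocounts and with JSH-23 at the lower. The medians of the 5 were 0.34 with vehicle (all genes 0.003) and 0.28 with JSH-23 (all genes -0.01). Between treated KO and untreated WT tumors, which asks where treated KO cells stand relative to the starting state, edgeR called 0 of the 10, beside 21.5% of all genes. There 1 passed at an unadjusted p under 0.05 (*Cx3cl1*), beside 66.5% of all genes, DESeq2 called 0, and limma on TPM called *Ccl2* at a pseudocount of 1 and *Cx3cl1* at 0.1. The median of the 5 was -0.43 (all genes -0.01).

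**Figure D3:**
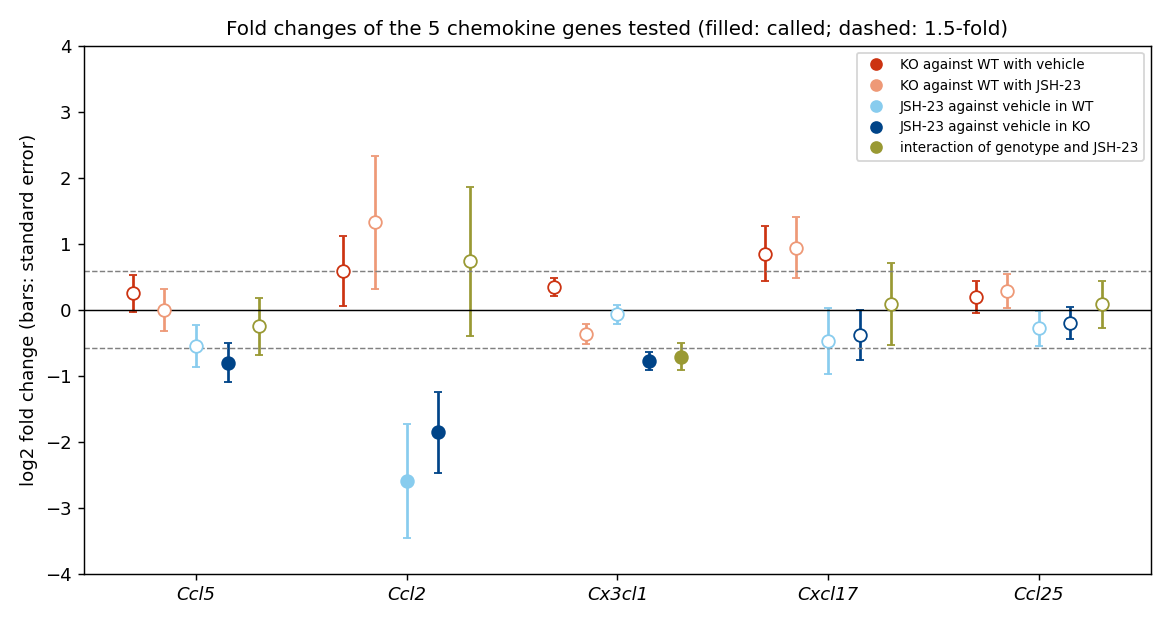
Log2 fold changes of the 5 chemokine genes tested, with standard errors as bars, in 5 comparisons from the edgeR model. Filled points passed adjusted p under 0.05 and 1.5-fold, which the dashed lines mark. Filled points are Ccl5, Ccl2 and Cx3cl1 for JSH-23 in KO, Ccl2 for JSH-23 in WT and Cx3cl1 for the interaction.

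*Cx3cl1* encodes fractalkine, made as a membrane-anchored chemokine on a mucin stalk that can hold cells bearing CX3CR1 or be shed. It lies on chromosome 8 of GRCm38, from 94772180 to 94782427 on the plus strand. It had 129 and 120 counts in WT with vehicle, 175 and 187 in KO with vehicle, 114 and 127 in WT with JSH-23 and 92 and 123 in KO with JSH-23. In CPM the means were 7.36 ± 0.425, 9.36 ± 0.432, 7.04 ± 0.958 and 5.44 ± 0.656 (SD, n = 2 each). KO with vehicle was highest and KO with JSH-23 lowest, and neither overlapped another group. The WT groups, in the middle, overlapped each other.

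With JSH-23, *Cx3cl1* fell by 0.78 on the log2 scale in KO tumors (standard error 0.14, 1.71-fold, adjusted p = 1.95e-06), and both treated samples were below both untreated ones. In WT tumors its log2 change was -0.07 (standard error 0.15, adjusted p = 0.719). The difference between these effects, the interaction, was -0.71 (standard error 0.21, adjusted p = 0.00388). The fall in KO was called in 17 of 18 alternatives, with adjusted p from 8.27e-08 to 0.0737, and was lost at a biological coefficient of variation of 0.2. The interaction was called in 13 of 17, with adjusted p from 8.38e-04 to 1.00, and was lost with DESeq2 (adjusted p = 0.0574), at coefficients of 0.1 and 0.2, and without WT JSH-23 replicate 2 (log2 -0.57, adjusted p = 0.0516).

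Between genotypes, *Cx3cl1* was 1.27-fold higher in KO with vehicle (adjusted p = 0.0306) and 1.29-fold lower in KO with JSH-23 (adjusted p = 0.0438). Both are below the 1.5-fold threshold, so neither was called, although the groups did not overlap. With vehicle, leaving out any 1 of the 4 samples compared took the adjusted p above 0.05 (log2 from 0.29 to 0.41). With JSH-23 the log2 change of -0.36 was -0.22 without WT JSH-23 replicate 2 (adjusted p = 0.378) and -0.25 without KO JSH-23 replicate 1 (adjusted p = 0.285), over a range of 0.00949 to 0.890. Treated KO tumors were 1.35-fold below untreated WT tumors (adjusted p = 0.0108), also under the threshold. A predicted gene on the opposite strand, *Gm51543*, overlaps the end of *Cx3cl1*. It had 45 and 41 counts in WT with vehicle, 63 and 74 in KO with vehicle, 44 and 43 in WT with JSH-23 and 28 and 44 in KO with JSH-23, so its counts were highest in KO with vehicle, as those of *Cx3cl1* were. Its part in the *Cx3cl1* result was not tested. This and the overlapping genes given below were singled out after their values were seen.

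*Ccl2*, the main chemoattractant of monocytes through CCR2, lies on chromosome 11 from 82035577 to 82037452 on the plus strand. It had 12 and 7 counts in WT with vehicle, 11 and 22 in KO with vehicle, 3 and 0 in WT with JSH-23 and 4 and 5 in KO with JSH-23. The 4 samples with JSH-23 were thus all below the 4 with vehicle, all with few counts. The means were 0.562 ± 0.213 and 0.837 ± 0.324 CPM in WT and KO with vehicle, whose samples overlapped, and 0.0838 ± 0.118 and 0.228 ± 0.0167 CPM in WT and KO with JSH-23 (SD, n = 2 each).

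*Ccl2* fell by 1.86 on the log2 scale in KO tumors (standard error 0.61, adjusted p = 0.00605) and fell by 2.60 in WT tumors (standard error 0.86, adjusted p = 0.00829). Summed counts went from 33 to 9 in KO, a ratio of 0.269 (exact 95% interval 0.113 to 0.574), and from 19 to 3 in WT, a ratio of 0.156 (0.0295 to 0.528). The interaction was 0.74 (standard error 1.13, adjusted p = 0.652 by edgeR). It was -0.15 without WT JSH-23 replicate 2 and 4.52 without replicate 1, against a group of 0 counts. A difference between genotypes was thus not detectable with these counts and samples. *Arid1a* loss gave log2 changes of 0.59 with vehicle (standard error 0.53, adjusted p = 0.371) and 1.32 with JSH-23 (standard error 1.01, adjusted p = 0.297). With 1 sample left out the first ranged from 0.11 (without KO vehicle replicate 2) to 1.03 (without WT vehicle replicate 1). The second was 5.11 without WT JSH-23 replicate 1, against a group of 0 counts, and 0.43 without replicate 2, and none of these was called.

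These calls rest on few samples, and *Ccl2* passed the filter only through samples with vehicle. Without a filter edgeR called both falls (adjusted p = 0.00909 in KO and 0.00818 in WT). In KO the fall of *Ccl2* was called in 14 of 17 alternatives (adjusted p from 0.00106 to 0.135), and was lost with DESeq2, with limma on log2(TPM + 0.1) and without KO vehicle replicate 2 (log2 -1.38, adjusted p = 0.135). In WT it was called in 15 of 17 (adjusted p from 0.00319 to 0.110). It was lost without WT vehicle replicate 1 (log2 -2.15, adjusted p = 0.101) or without WT JSH-23 replicate 2 (log2 -1.71, adjusted p = 0.110). Without WT JSH-23 replicate 1 the fitted change was -6.38, against a treated group of 0 counts, so its size depends on the prior count and is no bound.

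*Ccl7*, which also binds CCR2, starts 8260 bases beyond *Ccl2* on the same strand, from 82045712 to 82047525. It did not pass the filter. It had 2 and 1 counts in WT with vehicle, 3 and 5 in KO with vehicle, 5 and 0 in WT with JSH-23 and 1 and 0 in KO with JSH-23. Most samples were near the floor. In KO the summed counts were 8 with vehicle and 1 with JSH-23, a ratio of 0.123 (exact 95% interval 0.00277 to 0.918). In WT they were 3 and 5, a ratio of 1.64 (0.319 to 10.6). Without the filter edgeR gave *Ccl7* a log2 change of -2.71 in KO (adjusted p = 0.199), which was not called.

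*Ccl5* (RANTES) draws T cells, NK cells and monocytes. It lies on chromosome 11 from 83525778 to 83530518 on the minus strand. It had 61 and 52 counts in WT with vehicle, 73 and 81 in KO with vehicle, 72 and 7 in WT with JSH-23 and 36 and 54 in KO with JSH-23. The means were 3.34 ± 0.398, 3.98 ± 0.0775, 2.22 ± 2.54 and 2.27 ± 0.456 CPM (SD, n = 2 each). KO with vehicle was highest, WT with vehicle next, and the range of WT with JSH-23 covered those of KO with JSH-23 and WT with vehicle and reached that of KO with vehicle.

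In KO tumors *Ccl5* fell by 0.80 on the log2 scale with JSH-23 (standard error 0.29, 1.74-fold, adjusted p = 0.0131), and both treated samples were below both untreated ones. This call was kept in 12 of 17 alternatives (adjusted p from 7.03e-04 to 0.492). It was lost with DESeq2 (adjusted p = 0.492), with limma on TPM at either pseudocount, at a coefficient of variation of 0.2, and without KO JSH-23 replicate 1 (log2 -0.61, adjusted p = 0.120). The log2 change in WT was -0.55 (standard error 0.32, adjusted p = 0.137), and the standard error of the edgeR model is small beside samples of 72 and 7 counts: DESeq2 gave 0.962. With the replicate number as a block it was -0.59 and called (adjusted p = 0.0491).

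Each result on *Ccl5* that uses WT with JSH-23 turned on which of its samples was kept. The effect of JSH-23 in WT was -2.95 without replicate 1 (adjusted p = 1.02e-07) and 0.27 without replicate 2 (adjusted p = 0.406), over a range of 1.02e-07 to 0.663. The effect of *Arid1a* loss with JSH-23, -0.001 with both (standard error 0.32, adjusted p = 0.999), was 2.40 without replicate 1 (adjusted p = 3.07e-05) and -0.81 without replicate 2 (adjusted p = 0.0106). The interaction, -0.25 with both (standard error 0.43, adjusted p = 0.692), was 2.15 (adjusted p = 0.00118) and -1.07 (adjusted p = 0.00989). No direction is therefore given for *Ccl5* in these comparisons. With vehicle, where those samples are not compared, KO against WT was 0.25 (standard error 0.28, adjusted p = 0.482).

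*Ccl20*, the ligand of CCR6, had 1 and 2 counts in KO with vehicle and 0 in the 6 other samples, too few to tell from 0 in any sample. It lies on chromosome 1 from 83116766 to 83119167 on the plus strand. *Cxcl16*, the other membrane-anchored chemokine, binds CXCR6 and lies on chromosome 11 from 70454389 to 70459984 on the minus strand. It had 4 and 7 counts in WT with vehicle, 8 and 6 in KO with vehicle, 11 and 1 in WT with JSH-23 and 3 and 0 in KO with JSH-23. In KO the summed *Cxcl16* counts were 14 with vehicle and 3 with JSH-23, a ratio of 0.211 (exact 95% interval 0.0389 to 0.756), and in WT 11 and 12, a ratio of 1.07 (0.434 to 2.69). Without the filter edgeR gave *Cxcl16* a log2 change of -2.14 in KO (adjusted p = 0.0746) and an interaction of -2.23 (standard error 1.28, adjusted p = 0.271), neither called, and the WT value rests on replicate 1.

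*Cxcl17*, a mucosal chemokine whose receptor is debated, lies on chromosome 7 from 25400053 to 25412886 on the minus strand. It had 13 and 13 counts in WT with vehicle, 23 and 31 in KO with vehicle, 11 and 8 in WT with JSH-23 and 20 and 22 in KO with JSH-23. The means were 0.768 ± 0.00515, 1.39 ± 0.163, 0.550 ± 0.0904 and 1.07 ± 0.0182 CPM (SD, n = 2 each), and no groups overlapped. Both KO groups lay above both WT groups.

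The log2 change of *Cxcl17* with *Arid1a* loss was 0.85 with vehicle (standard error 0.42, adjusted p = 0.0819) and 0.94 with JSH-23 (standard error 0.46, adjusted p = 0.0879), and neither passed the edgeR test. By summed counts the ratios were 1.81 (exact 95% interval 1.12 to 3.02) and 1.93 (1.10 to 3.51). Limma on TPM called it with vehicle at both pseudocounts (adjusted p = 0.00211 and 0.00384, over a range of 0.00211 to 0.396). JSH-23 gave -0.38 in KO (standard error 0.38, adjusted p = 0.382) and -0.47 in WT (standard error 0.50, adjusted p = 0.441). Limma on log2(TPM + 0.1) called the change in KO. The interaction was 0.09 (standard error 0.62, adjusted p = 0.932). On the opposite strand *4732471J01Rik*, with 27 to 75 counts, spans the gene.

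*Ccl25*, a chemokine of thymus and small intestine that acts through CCR9, lies on chromosome 8 from 4325205 to 4360020 on the plus strand. It had 50 and 41 counts in WT with vehicle, 48 and 72 in KO with vehicle, 37 and 39 in WT with JSH-23 and 44 and 62 in KO with JSH-23. Its means, 2.69 ± 0.394, 3.07 ± 0.591, 2.22 ± 0.216 and 2.68 ± 0.421 CPM (SD, n = 2 each), differed by little beside their spread. Its log2 changes lay between -0.28 and 0.28 over the 4 comparisons of genotype or treatment, with adjusted p from 0.378 to 0.524. A predicted gene on the same strand, *LOC108167518*, lies inside *Ccl25* and had 83 to 237 counts, more than *Ccl25* in every sample, so which reads belong to *Ccl25* is uncertain.

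*Cxcl12*, which binds CXCR4 and ACKR3 and is made chiefly by stromal cells, had 2 to 6 counts in each of the 8 samples. It lies on chromosome 6 from 117168535 to 117181368 on the plus strand. Its ratios of summed counts between groups were 1.31 for KO against WT with vehicle, 1.31 for JSH-23 in WT, 0.985 for JSH-23 in KO and 0.982 for KO against WT with JSH-23, each with an interval that includes 1. *Cxcl14*, on chromosome 13 from 56288643 to 56296811 on the minus strand, is a chemokine of normal epithelium. It had 7 and 4 counts in WT with vehicle, 4 and 2 in KO with vehicle, 3 and 1 in WT with JSH-23 and 1 and 1 in KO with JSH-23. The ratio for JSH-23 was 0.358 in WT (exact 95% interval 0.0832 to 1.21) and 0.328 in KO (0.0324 to 1.84), so a change in *Cxcl14* was not detectable at this depth.

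The receptors of these chemokines were scarce in the sorted cells, with 5 of 23 receptor genes tested. *Ackr3*, a scavenger receptor that takes up CXCL12, was the exception. It stood at 133 ± 3.48 CPM in WT and 155 ± 4.70 in KO with vehicle, and at 21.2 ± 0.536 and 20.6 ± 0.240 with JSH-23 (SD, n = 2 each). It fell by 2.91 on the log2 scale in KO (standard error 0.050, adjusted p = 2.05e-55) and fell by 2.64 in WT (standard error 0.054, adjusted p = 1.58e-50), with treated samples below untreated ones in both genotypes, and was called in all 18 alternatives in both. Its ligand gene *Cxcl12* stayed at 2 to 6 counts.

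The other receptors called had few reads, and each passed the filter only through the groups where it was high. Its call was thus favoured before the test. *Cxcr6*, the receptor of CXCL16, had 6 and 3 counts in WT with vehicle and 3 and 2 in KO with vehicle. With JSH-23 it had 17 and 11 in WT and 14 and 10 in KO. *Cxcr6* rose with JSH-23 by a log2 change of 1.59 in WT (adjusted p = 0.0246) and 2.18 in KO (adjusted p = 0.00602). The call was lost in WT without WT vehicle replicate 2 (1.18) or WT JSH-23 replicate 1, with DESeq2 and at a coefficient of variation of 0.2. In KO it was lost without KO vehicle replicate 2 (1.84) or KO JSH-23 replicate 1 and with limma on log2(TPM + 1).

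*Cx3cr1*, the receptor of CX3CL1, had 3 and 7 counts in WT with vehicle, 14 and 17 in KO with vehicle, 7 and 8 in WT with JSH-23 and 7 and 7 in KO with JSH-23. KO with vehicle was the highest group for *Cx3cr1*, as it was for *Cx3cl1*. *Cx3cr1* passed the filter only through the KO vehicle samples, so a rise there was favoured before the test. Its log2 change with *Arid1a* loss under vehicle was 1.42 (standard error 0.59, adjusted p = 0.0390 by edgeR). That call was kept in 10 of 17 alternatives. It was lost without WT vehicle replicate 1 (0.95), without either KO vehicle sample and with DESeq2. It was also lost without a filter, with limma on log2(TPM + 1) and at a coefficient of variation of 0.2. *Ccrl2*, a receptor that binds chemerin and does not signal, fell with JSH-23 in KO (log2 -2.18, adjusted p = 0.00220) from 14 and 23 counts to 8 and 0, and the call was lost without KO JSH-23 replicate 2 (-1.12). *Cxcr6* passed the filter only through samples with JSH-23, and *Ccrl2* only through samples with vehicle. The tallies and medians that follow include these genes and *Cx3cr1*, so they are descriptions only. Of the 5 receptors tested, edgeR called 1 higher and 0 lower with *Arid1a* loss under vehicle (median log2 change 0.57), beside 7.48% of all genes higher and 5.16% lower. Under JSH-23 it called 0 (median -0.04), beside 8.71% of all genes, with 0 at an unadjusted p under 0.05, beside 52.2% of all genes, and 0 by DESeq2 or limma. JSH-23 gave 1 higher and 2 lower in KO (median -1.15), beside 9.10% and 16.9% of all genes, and 1 higher and 1 lower in WT (median -0.60), beside 5.55% and 10.2%. In the interaction edgeR called 0, beside 9.07% of all genes, with 1 at an unadjusted p under 0.05, beside 45.5%, 0 by DESeq2 and 1 by limma on log2(TPM + 0.1).

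Of 8 proteases that shed or trim chemokines, 5 were tested. *Arid1a* loss lowered *Mmp14* and *Ctss* and raised 0 of them, under vehicle and under JSH-23 alike (medians -0.18 and -0.04), beside 5.16% and 4.97% of all genes lower. Both genes passed the filter only through WT samples, so a fall with *Arid1a* loss was favoured before the test. For JSH-23 edgeR called 0 in either genotype (medians 0.12 in KO and -0.12 in WT), beside 26.0% and 15.8% of all genes. At an unadjusted p under 0.05 there were 3 in each, beside 70.1% and 59.8% of all genes, and DESeq2 and limma called 0. *Ctss*, which encodes the lysosomal protease cathepsin S that can release CX3CL1, had 32 and 39 counts in WT with vehicle, 3 and 1 in KO with vehicle, 44 and 5 in WT with JSH-23 and 1 and 2 in KO with JSH-23. Its log2 change with *Arid1a* loss was -4.25 with vehicle (adjusted p = 9.14e-08 by edgeR) and -4.09 with JSH-23 (adjusted p = 3.72e-06). The size of the first rests on few counts. It was -5.25 without KO vehicle replicate 1 and -3.61 without replicate 2, and the smallest over all alternatives was -1.97. *Mmp14*, a membrane-anchored metalloprotease, had -1.84 with vehicle, lost in 6 of 17 alternatives, which include DESeq2 and leaving out WT vehicle replicate 1 or either KO vehicle sample, and -2.25 with JSH-23, lost in 5 of 17, which include DESeq2, limma at both pseudocounts and leaving out KO JSH-23 replicate 2 (-1.76). *Ctss* and *Mmp14* separate the samples of WT with JSH-23 as *Adgre1* and *Csf1r* do: *Mmp14* had 25 counts in replicate 1 and 1 in replicate 2. Without replicate 1, the effect of *Arid1a* loss with JSH-23 was -1.90 for *Ctss*, no longer called, and 1.24 for *Mmp14*, the other direction. The part of macrophage RNA in these differences was not tested. *Ctsb*, which encodes cathepsin B, had the highest mean TPM of the list, stood at 242 ± 2.31 CPM in WT with vehicle (SD, n = 2) and was called in 0 of the 6 comparisons.

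The other chemokine ligands give the setting for the 10 genes. Of 31 listed, 30 were in the tables and 12 were tested. With *Arid1a* loss under vehicle 6 rose and 2 fell (*Ccl9* and *Cxcl9*, named after their values were seen), with a median of 0.72, beside 7.48% of all genes higher and 5.16% lower. In the same comparison the markers *Krt8* and *Cd68* were called higher and *Adgre1*, *Csf1r*, *Lyz2*, *Laptm5* and *Col1a1* lower, and their part in the ligand changes was not tested. Under JSH-23 5 rose and 2 fell (*Ccl28* and *Cxcl9*, likewise), with a median of 0.62, beside 3.74% higher and 4.97% lower. There *Krt8*, *Krt18* and *Cd68* were called higher and *Adgre1*, *Lyz2*, *Col1a1*, *Col1a2* and *Col3a1* lower. JSH-23 lowered 7 and raised 0 in each genotype, with medians of -1.80 in KO and -1.60 in WT, beside 16.9% and 10.2% of all genes lower. Of the markers, *Cd14*, *Cd68* and *Pdgfra* were called lower and *Krt18* higher in KO. In WT *Csf1r*, *Cd14*, *Laptm5* and *Krt8* were called lower and *Col3a1* higher. Their part in the ligand falls was not tested. *Cxcl1*, a CXCR2 ligand, rose by a log2 change of 1.97 with *Arid1a* loss under vehicle. With JSH-23 it fell by 2.25 in KO, and its log2 change in WT was -1.67, also called. Its interaction of -0.58 was under the 1.5-fold threshold. *Cxcl5*, another CXCR2 ligand, had log2 changes with JSH-23 of -1.84 in KO and -1.99 in WT, both called. In the interaction edgeR called 1 of the 12 higher (*Ppbp*) and 2 lower (*Cxcl2* and *Cxcl3*), with a median of -0.055. *Ppbp* and *Cxcl3* were named after their values were seen. Of all genes, 3.30% were called higher and 5.76% lower there. *Cxcl2* differed between genotypes in its response to JSH-23 (interaction -0.84, adjusted p = 2.04e-04), falling in both (-2.73 in KO and -1.89 in WT), whereas *Cx3cl1* was called lower in KO. *Cxcl15* rose with *Arid1a* loss under either treatment (0.89 and 1.42). At a coefficient of variation of 0.2 the calls of the *Cxcl2* interaction and of *Cxcl15* with vehicle were lost.

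Among 10 genes known to respond to NF-κB, 9 were tested, and JSH-23 in KO lowered 4 and raised 1, beside 16.9% of all genes lower and 9.10% higher. *Icam1*, an adhesion molecule, had log2 changes of -2.05 in KO and -1.84 in WT, both called. *Traf1*, an adaptor of TNF receptors, had -1.81 in KO, *Relb* -0.74 and *Nfkb1* -0.64, and the calls of the last pair were lost at a coefficient of variation of 0.2. *Nfkbia*, which encodes the inhibitor IκBα, rose by a log2 change of 0.93 in KO, and in WT its 0.58 was just under the 1.5-fold threshold. In WT 1 fell (*Icam1*) and 0 rose, beside 10.2% and 5.55% of all genes. With *Arid1a* loss under vehicle 1 rose (*Icam1*, 0.79, lost with DESeq2, with limma on log2(TPM + 0.1), at 0.2, and without WT vehicle replicate 2 or KO vehicle replicate 1) and 0 fell, beside 7.48% and 5.16% of all genes. In the interaction edgeR and DESeq2 called 0 of the 9, beside 9.07% of all genes called by edgeR, with 8 at an unadjusted p under 0.05, beside 45.5% of all genes, and limma called 1 at the lower pseudocount. The median interaction was -0.22 (all genes -0.004). Below the 1.5-fold threshold, *Nfkbia* (0.35, adjusted p = 2.49e-16), *Nfkb1* (-0.25, adjusted p = 0.00467) and *Relb* (-0.39, adjusted p = 0.0279) had an adjusted p under 0.05. The medians of the 9 were -0.39 for JSH-23 in KO, -0.12 in WT and 0.02 for *Arid1a* loss with vehicle.

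Promoter sequence was available from RefSeq (GRCm38.p6) for 5 of the 10 genes, in 6 windows. The windows of 250 bases before the annotated start were searched on both strands for TATAAA, present in 12.4% of 32851 such windows, for GGGCGG (32.7%) and for the NF-κB consensus (3.90%). *Cx3cl1* is shown because its RNA carried the interaction, and *Ccl20* because it is the member whose window held a match to the NF-κB consensus although it had 3 counts in all. The *Cx3cl1* window (chr8:94771930-94772179, plus strand) held TATAAA and GGGCGG, in capitals, and no match to the NF-κB consensus. In GENCODE the gene starts at 94772009, inside this window. The *Ccl20* window (chr1:83116516-83116765, plus strand) held the NF-κB match, in capitals, read on the minus strand. A match describes letters and is not evidence of binding.
Ccl20: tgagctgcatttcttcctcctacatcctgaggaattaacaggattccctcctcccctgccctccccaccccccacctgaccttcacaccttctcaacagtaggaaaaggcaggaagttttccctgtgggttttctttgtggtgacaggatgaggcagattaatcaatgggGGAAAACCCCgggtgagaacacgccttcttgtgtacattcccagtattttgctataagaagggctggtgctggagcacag
Cx3cl1: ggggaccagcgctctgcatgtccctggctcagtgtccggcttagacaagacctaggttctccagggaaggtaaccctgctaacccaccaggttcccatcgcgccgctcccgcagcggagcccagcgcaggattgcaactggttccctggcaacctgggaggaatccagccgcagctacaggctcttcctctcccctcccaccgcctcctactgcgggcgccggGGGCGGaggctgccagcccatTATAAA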

How the data were processed

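RNA-seq of sorted EpCAM-positive, CD45-negative cells was used, with 2 samples in each of 4 groups. The deposited count values are reads per gene without normalization, from the authors. The deposited TPM values are those counts per gene length, scaled to 1 sum per sample. The sources differ on the aligner: the study's methods name TopHat2 and the record names HISAT2, both followed by HTSeq on mm10, without versions in the record.

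Counts were filtered with filterByExpr (13921 of 39089 genes kept), scaled by TMM (factors 0.949 to 1.03) and fitted in edgeR 4.0.16 (R 4.3.3) by quasi-likelihood, each group having its own mean. P-values were adjusted by Benjamini-Hochberg over all genes tested. A gene with few reads could pass the filter through a single group, which favoured a call in that direction before the test. Besides the genes named above, this holds for markers: *Adgre1*, *Csf1r* and *Laptm5* passed only through WT samples, and *Krt18* only through KO with JSH-23. A call needed adjusted p under 0.05 and 1.5-fold. The standard errors given for edgeR were derived from its test, as the absolute log2 fold change divided by the square root of the F statistic. They are therefore approximate. The common biological coefficient of variation was 1.61%. The 6 comparisons share samples. Ratios of summed counts carry exact conditional 95% intervals. The pipeline was tested on simulated data.

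Alternatives were DESeq2 1.42.0, a replicate block, scaling by library size alone, either no filter or a minimum of 10 counts per sample, limma 3.58.1 on TPM after adding 1 or 0.1 and taking log2, a fit of only the groups compared, coefficients of variation of 0.1 and 0.2, and leaving out each sample. For named genes outside the 10 chemokines they were added after seeing the data, for called changes. The members and lists were chosen with earlier results of these data known. Named genes are the 10 chemokines, *Arid1a*, of each list every called gene (up to 6, otherwise the 4 with the highest mean CPM), the gene with the highest TPM, and genes of like pattern for members of at least 10 CPM. Lists were other chemokine ligands, chemokine receptors, chemokine-processing proteases, NF-κB response genes and markers of epithelium, leukocytes, macrophages and monocytes, neutrophils, T and NK cells, fibroblasts and endothelium.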

Additional observations from a re-analysis of the deposited data

Results flagged for a closer look

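The effect of JSH-23 differed between KO and WT tumors for *Cx3cl1*, by -0.71 on the log2 scale, and for *Cxcl2*, by -0.84, each by edgeR's test of the interaction. The adjusted p was 0.00388 and 2.04e-04. The *Cx3cl1* call was lost in 4 of 17 alternatives: with DESeq2 (adjusted p = 0.0574), at biological coefficients of variation of 0.1 and 0.2, and without WT JSH-23 replicate 2 (adjusted p = 0.0516), over a range of 8.38e-04 to 1.00. The *Cxcl2* call was lost in 1 of 17, at a coefficient of 0.2. Among the other chemokine ligands, edgeR also called *Cxcl3* lower and *Ppbp* higher in the interaction. Groups of 2 samples were too small for a test of single samples that lie far from the rest.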

How the results depend on the processing

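The number of genes called stayed within 1.5 times its value in 52 of 59 alternatives on all samples and in all 48 that left out 1 sample. At a biological coefficient of variation of 0.2 it was 614 for *Arid1a* loss with vehicle, 258 with JSH-23, 2144 and 809 for JSH-23 in KO and WT, 47 for the interaction and 1536 for treated KO against untreated WT, and at 0.1 it was 747 for the interaction. Of the 10 chemokines, 1 was called for *Arid1a* loss with vehicle by limma on TPM at both pseudocounts and with JSH-23 at the lower. For JSH-23 in KO, 1 was called with DESeq2, with at least 10 counts per sample and at 0.2. For JSH-23 in WT, 0 were called with at least 10 counts, where fewer chemokines were tested, and 2 with the replicate block (*Ccl2* and *Ccl5*). For the interaction, 0 were called with DESeq2, at 0.1 and at 0.2. For treated KO against untreated WT, limma called 1 at each pseudocount. By TPM in place of CPM, 9 and not 8 of the chemokines were highest in KO with vehicle. The cause of these differences was not tested.

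Log2 fold changes of the chemokines kept direction and side of the threshold in 243 of 277 alternatives on all samples, and called changes of other named genes in 385 of 415. Each reversed value below belongs to a change that was not called. *Ccl5* for *Arid1a* loss with JSH-23 was 0.026 with DESeq2, 0.064 with the replicate block, 0.41 and 0.56 with limma (pseudocounts 1 and 0.1), 0.0075 with only the groups compared and 0.0020 and 0.014 at coefficients of 0.1 and 0.2. In the interaction, limma gave -0.0008 for *Ccl2* (pseudocount 1), 0.16 and 0.30 for *Ccl5*, -0.10 and -0.12 for *Ccl25* and -0.12 and -0.086 for *Cxcl17*. Without scaling *Ccl25* was -0.023 and *Cxcl17* -0.012. *Ccl25* for treated KO against untreated WT was 0.0009 without a filter. No causes were tested.

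With 1 sample left out, 0 to 1 of the chemokines were called for *Arid1a* loss with JSH-23, 0 to 2 for JSH-23 in WT and 1 to 2 for the interaction. Log2 changes of *Ccl25* ranged from -0.020 to 0.37 for *Arid1a* loss with vehicle, -0.37 to 0.019 for JSH-23 in KO, -0.095 to 0.30 for the interaction and -0.17 to 0.17 for treated KO against untreated WT. *Ccl5* ranged from -0.81 to 2.40 for *Arid1a* loss with JSH-23, -2.95 to 0.27 for JSH-23 in WT and -1.07 to 2.15 for the interaction. *Cx3cl1* ranged from -0.21 to 0.069 for JSH-23 in WT. In the interaction *Ccl2* ranged from -0.15 to 4.52 and *Cxcl17* from -0.060 to 0.27. *Mmp14*, the exception to the uncalled reversals, ranged from -3.14 to 1.24 for *Arid1a* loss with JSH-23. A group left with 1 sample is assumed to vary like the others.

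Without scaling the median of all genes for JSH-23 in KO was -0.13, against -0.02 with TMM. Limma on TPM, which changes tool, unit and pseudocount together, gave -0.21 and -0.25. The falls of *Cx3cl1* and *Ccl2* in KO kept their direction in each. Same-numbered samples were not correlated beyond their groups (-0.096 to 0.040). Counts of 0 to 7 in each sample limit what can be said of *Ccl7*, *Ccl20*, *Cxcl12* and *Cxcl14*.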
